A study of Mus musculus with 40 samples.

Results

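The 10 genes described here encode the core enzymes and carriers of mitochondrial fatty acid oxidation: *Cpt1a*, *Slc25a20*, *Cpt2*, *Acadvl*, *Acadl*, *Acadm*, *Acads*, *Hadh*, *Hadha* and *Hadhb*. They were taken by symbol, and all 10 were found among the 47643 genes of the count tables. RNA-seq of hippocampus and frontal cortex gave their levels in wild-type Swiss Webster mice, which are outbred, were raised germ-free and were 6 to 8 weeks old. Every cohort was fed the same control chow and was colonized by gavage with stool of 1 of 10 donors, collected either before (pre-KD) or during (post-KD) a clinical ketogenic diet (KD), a high-fat, low-carbohydrate regimen. Tissue was taken 4 days later, and each of the 40 libraries pools 6 mice, which leaves 10 libraries per region and condition. The mice themselves never ate a ketogenic diet, no group without colonization was part of these libraries, and pooling hides how far single mice differ.

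Long-chain fatty acids enter mitochondria as acylcarnitines. Carnitine palmitoyltransferases and a carnitine carrier move them across the membranes, acyl-CoA dehydrogenases of overlapping chain-length preference start each round of oxidation, and hydration, a further dehydrogenation and thiolysis complete it and release acetyl-CoA. The brain oxidizes fatty acids far less than heart or liver does, and what it oxidizes is largely handled by astrocytes. In the liver the same pathway feeds ketone body synthesis, which a ketogenic diet raises. The comparison between post-KD and pre-KD cohorts asks whether stool collected on the diet changed the abundance of these transcripts in the brain of recipient mice.

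The libraries held 1140756 to 2095352 counts on genes, of which *Gm42418* alone took 8.63% to 18%. Levels are given in CPM, counts scaled to library size, normalized with TMM factors over all 40 libraries, and a library with 0 counts of a gene allows up to 1.5 to 2.83 CPM there (3 counts, covering counting error only). Of the hippocampus markers, 5 of 9 were higher in the hippocampal libraries at an adjusted p below 0.05 and 0 were lower, and of the cortex markers 2 of 8 were lower and 1 was higher. Choroid plexus markers stood higher in the hippocampal libraries for 7 of 7 genes, 3 of them past the adjusted threshold, and striatum markers were higher in the frontal cortical libraries for 6 of 6 genes tested, all past it. The methods name female mice, yet the 8 libraries of donors 9 and 10, in both regions and both conditions, held 139 to 276 counts of 4 Y-linked genes and at most 26.6 CPM of *Xist*. The other 32 libraries had 402 to 770 CPM of *Xist* and at most 27 Y-linked counts. Those cohorts are balanced over condition and region, and each comparison was repeated without them.

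All 10 transcripts were scarce at this depth. Together they made up 0.0111% to 0.0284% of the counts of a library, with a median of 0.0199%. *Hadha* was counted most, with 78.6 counts per library on average, followed by *Acadl* with 55.8 and *Acadm* with 40.6. *Cpt2* averaged 4.28 counts and had no count in 20 of the 40 libraries, and *Slc25a20* averaged 8.40 counts with 8 libraries at 0. Only *Acadl*, *Hadh* and *Hadha* were counted in all 40 libraries.

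**Figure D1:**
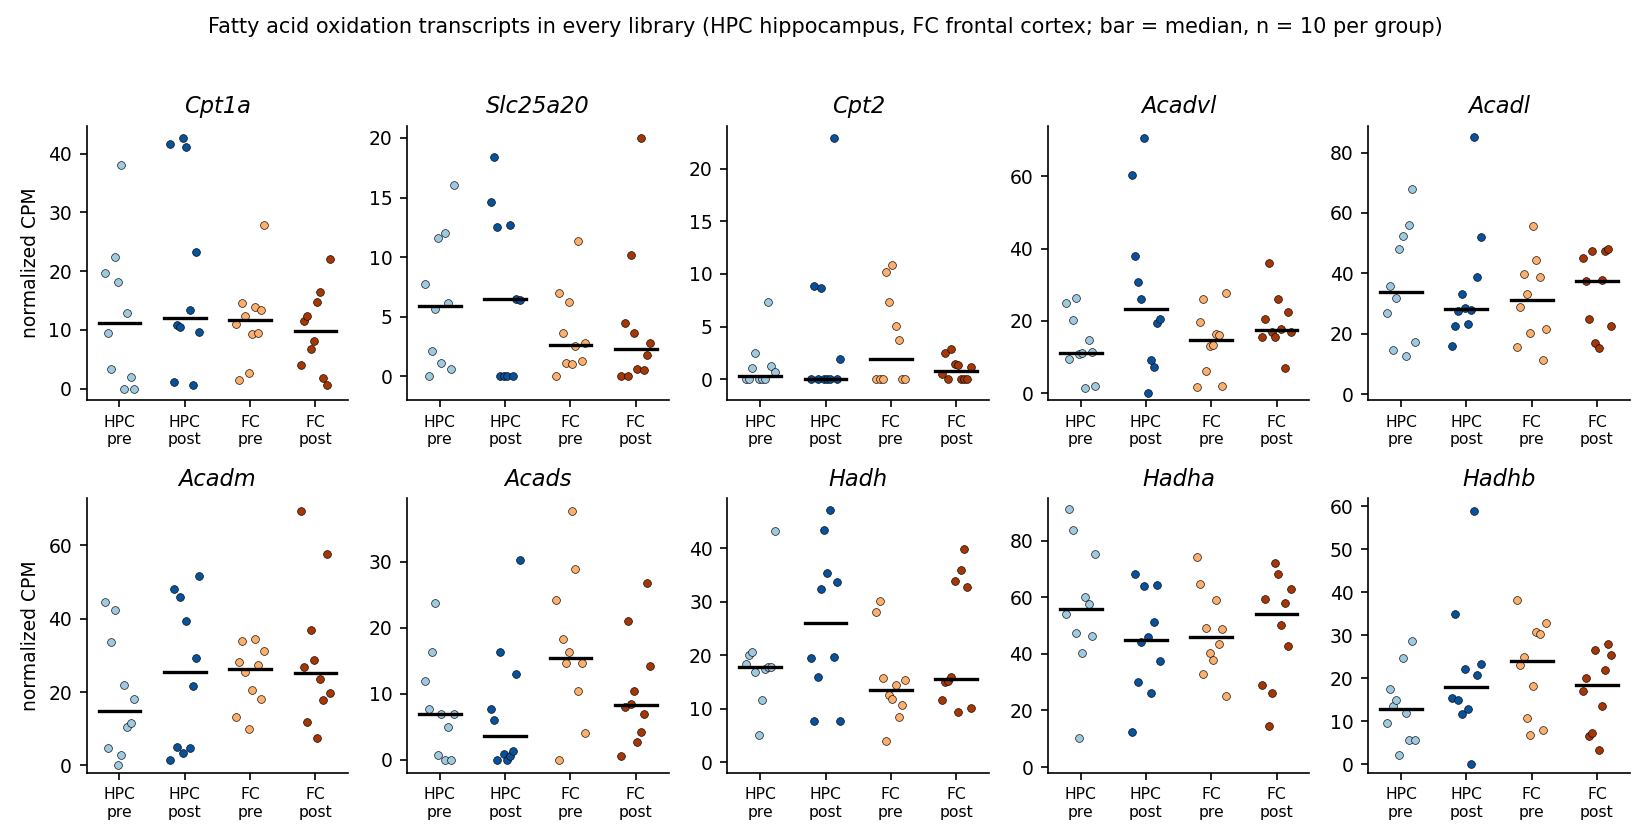
Normalized CPM of each fatty acid oxidation transcript in all 40 libraries, 1 panel per gene with its own vertical scale, by region (HPC hippocampus, FC frontal cortex) and condition. Points are libraries (n = 10 per group) and bars are medians. Pre-KD and post-KD points overlap in each region for all 10 genes, and 20 of the 40 points of *Cpt2* lie at 0.

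Where the genes lie bears on how their reads were counted and on what their start regions share. *Hadha* and *Hadhb*, which encode both subunits of the trifunctional protein of the inner membrane, are neighbours on chromosome 5. *Hadha* runs from 30118304 to 30155162 on the minus strand and *Hadhb* from 30155248 to 30184593 on the plus strand (GENCODE M21, GRCm38), so they diverge from a stretch of 85 bases that holds no annotated exon of either gene. Between the RefSeq start sites, which lie within the *Hadha* annotation and at the *Hadhb* edge, the distance is 272 bases. The stretch between the annotated genes is shown because the genes of both subunits start beside it, with its 2 GC boxes (GGGCGG, the motif bound by Sp1) in capitals. Its GC content is 69.4% (RefSeq, GRCm38.p6, chr5:30155163-30155247, plus strand).
*Hadha* to *Hadhb*: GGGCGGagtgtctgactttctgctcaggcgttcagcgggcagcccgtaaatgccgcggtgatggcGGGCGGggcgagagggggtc

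Promoter windows of 250 bases before to 50 after the RefSeq start site were read for all 10 genes, and each motif was searched on both strands. A GC box was present in 8 of the 10 windows, those of all genes but *Acadm* and *Acadvl*, against 35.7% of all 32851 windows. The windows of *Hadha* and *Hadhb* overlap by 228 bases, and the box of *Hadha* is one of those in the window of *Hadhb*. The letters TATAAA were in 0 of the 10 windows and in 13.6% of all windows, and CCAAT was in those of *Cpt1a* and *Hadh* and in 37.4% of all. Fatty acid oxidation genes are known targets of PPARα, a nuclear receptor that binds pairs of AGGTCA half-sites. The exact letters of the DR1 element, a direct pair of half-sites with 1 base between, were in 0 of the 10 and in 0.0396% of all windows. They are so rare that the 0 does not bear on whether PPARα binds these genes. A single AGGTCA was found in the windows of *Cpt1a*, *Acadm* and *Acadvl* and in 16.3% of all windows. Each of the 3 matches is given within a stretch of 30 bases on the strand of its gene, with the half-site (AGGTCA or its reverse complement) in capitals, and a match is only a match of letters. They lie at chr19:3323195-3323224 (plus strand), chr3:153944864-153944893 (minus) and chr11:70015498-70015527 (minus).
*Cpt1a*: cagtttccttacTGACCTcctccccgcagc
*Acadm*: gTGACCTtcgggctccggtgacactgggca
*Acadvl*: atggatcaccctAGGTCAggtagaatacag

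Post-KD and pre-KD libraries were compared in each region with edgeR's quasi-likelihood test across all genes. In the hippocampus, 0 of the 10 genes passed an adjusted p of 0.05, where 0.0057% of the 17529 genes tested did (1 gene), and 0 of 10 had an unadjusted p below 0.05, the threshold of the study, where 10.1% of all genes did. For the frontal cortex the numbers were 0 of 10 at the adjusted threshold against 0.0056% of 17873 genes, and 0 of 10 at the unadjusted one against 9.68%. These shares over all genes depend on the filter. A stricter one (filterByExpr) left 221 of 9509 hippocampal and 407 of 10033 frontal cortical genes at the unadjusted threshold. With DESeq2, the tool the authors used, unadjusted calls were 3.42% and 4.62% of all genes, and 1 of the 10, *Acadvl* in the hippocampus, was among them, but not with the stool donor as a block in DESeq2 (p = 0.0730, adjusted p = 0.971). With the stool donor as a block, edgeR made 348 and 548 unadjusted and 0 and 3 adjusted calls over all genes in hippocampus and frontal cortex, 0 of them among the 10. Fitted log2 fold changes (post-KD over pre-KD) were above 0 for 7 genes and below 0 for 3 in the hippocampus, with a median of 0.43 against -0.0076 over all genes tested. The frontal cortical split was 6 to 4, with a median of 0.08 against 0.0089.

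**Figure D2:**
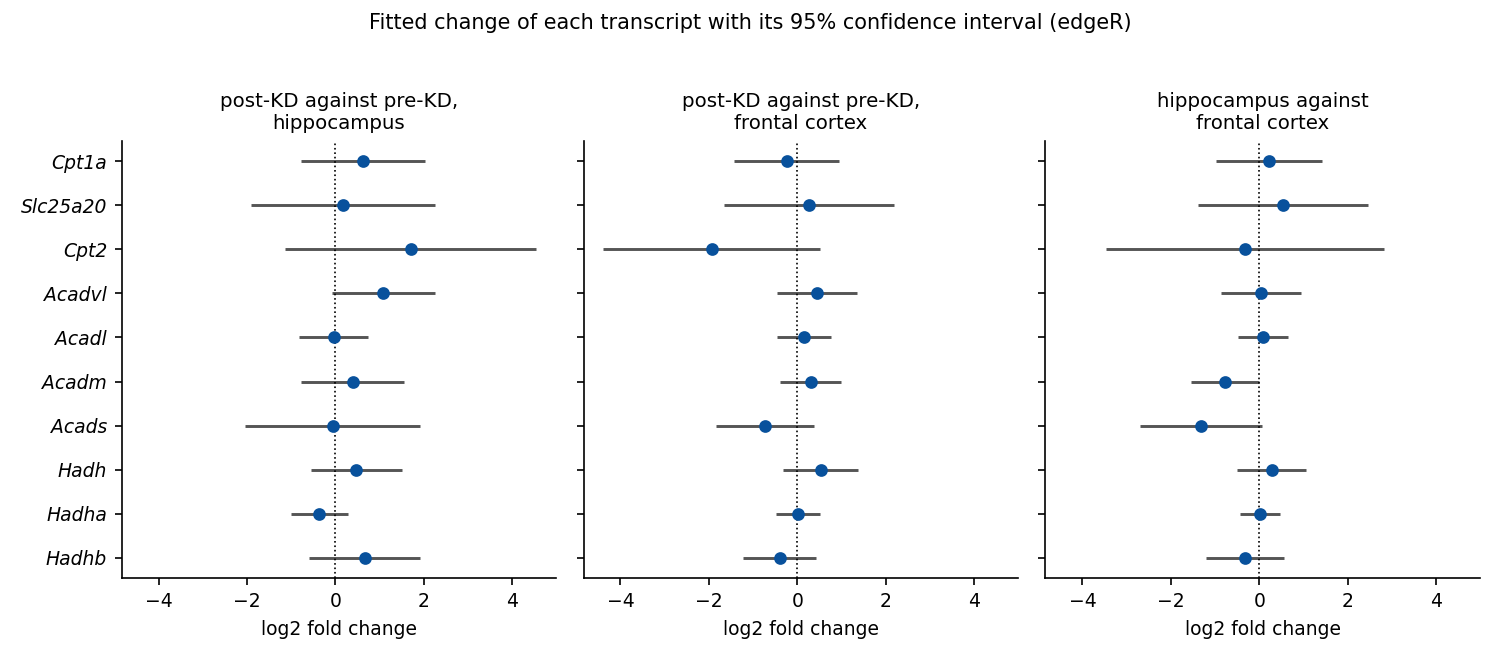
Log2 fold change of each transcript (points) with its 95% confidence interval (lines) from edgeR, for post-KD against pre-KD in each region (n = 10 libraries per group) and for hippocampus against frontal cortex (n = 20 per region). All 30 intervals reach 0, those of *Cpt2* are the widest, and that of *Acadm* between regions ends at 0.001.

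The carnitine shuttle comprises *Cpt1a*, *Slc25a20* and *Cpt2*. *Cpt1a* (chromosome 19 from 3322334 to 3385733) encodes the liver-type carnitine palmitoyltransferase of the outer membrane, the step that malonyl-CoA inhibits and the main control point of the pathway. In the hippocampus its level ran from 0 to 38.1 CPM pre-KD with a median of 11.1, and from 0.656 to 42.6 CPM post-KD with a median of 12.1. The frontal cortical range was 1.41 to 27.8 CPM pre-KD (median 11.7) and 0.594 to 22.1 CPM post-KD (median 9.79). Groups overlapped in both regions. Hippocampal libraries post-KD included 3 above every pre-KD library, and 7 of 10 donors had the higher value post-KD, against 4 of 10 in the frontal cortex. The log2 fold change was 0.62 (standard error 0.71, edgeR unadjusted p = 0.381) in hippocampal and -0.24 (0.60, p = 0.694) in frontal cortical libraries.

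*Slc25a20* (chromosome 9 from 108662088 to 108684641) encodes the carnitine-acylcarnitine translocase of the inner membrane. Its hippocampal values reached 16 CPM pre-KD and 18.4 CPM post-KD, with medians of 5.88 and 6.46 CPM and 1 and 4 libraries at 0. The frontal cortical medians were 2.68 and 2.31 CPM, the highest values 11.3 and 20.03 CPM, and 1 and 2 libraries were at 0. Donors split evenly in the hippocampus, 5 higher and 5 lower post-KD, and 3 were higher, 6 lower and 1 equal in the frontal cortex. The log2 fold changes of 0.17 and 0.26 had standard errors of 1.05 and 0.97, and in edgeR fits with a donor block both turned negative, to -0.69 and -0.37. Without donor 7, whose post-KD library held the 20.03 CPM, the frontal cortical value was -0.51, and without donor 4 it was -0.080.

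*Cpt2* (chromosome 4 from 107903981 to 107923610) encodes the inner-membrane enzyme that turns acylcarnitines back into acyl-CoA. Hippocampal values reached 7.37 CPM pre-KD and 22.9 CPM post-KD, and 5 and 6 of 10 libraries were at 0. In the frontal cortex 5 pre-KD libraries, with up to 10.9 CPM, exceeded every post-KD library, the highest of which had 2.83 CPM, while 5 pre-KD and 4 post-KD libraries were at 0. The summed counts were 21 pre-KD and 68 post-KD in the hippocampus, of which the post-KD library of donor 8 alone held 35, and 65 and 17 in the frontal cortex. Its log2 fold changes were the largest of the 10 genes in size and opposite in sign, 1.70 (standard error 1.43, p = 0.238) in hippocampal and -1.94 (1.23, p = 0.120) in frontal cortical libraries. With a donor block they shrank to 0.88 and -1.43 in edgeR and to 0.49 and -1.02 in DESeq2, and in both the hippocampal values of *Cpt1a* and *Acadvl* were larger. The difference between them was not detectable at this depth: the fit over both regions with a cohort term put it at 1.26 on the log2 scale, with an interval of -5.28 to 7.79 (p = 0.706), and the fit without that term at 3.65 (p = 0.0510, adjusted p = 0.556).

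Among the acyl-CoA dehydrogenases, *Acadvl* (chromosome 11 from 70010183 to 70015411) encodes the very-long-chain enzyme of the inner membrane. Its hippocampal level ran from 1.34 to 26.2 CPM pre-KD, with a median of 11.2, and from 0 to 70.5 CPM post-KD, with a median of 23.4. The groups overlapped, with 4 post-KD libraries above every pre-KD library and 1 below every one. Means were 13.2 ± 8.50 and 28.2 ± 22.8 CPM (SD, n = 10 each), 7 of 10 donors were higher post-KD, and the log2 fold change was 1.09 (standard error 0.59, 95% interval -0.09 to 2.26, edgeR unadjusted p = 0.0691, adjusted p = 0.599). The unadjusted p was 0.0465 with DESeq2, 0.0353 without donor 6 and 0.0478 without donor 8, and the adjusted p lay between 0.426 and 1.0 over 19 alternatives. Frontal cortical medians were 14.7 (1.56 to 27.8) CPM pre-KD and 17.3 (6.94 to 36.1) CPM post-KD, with 8 of 10 donors higher and a log2 fold change of 0.44 (0.46, p = 0.333). *Acadvl* shares 1151 exonic bases with *Dvl2*, a Wnt signaling gene on the opposite strand that held 1431 counts to the 1201 of *Acadvl*, and whether counting used strand is not given in the sources used here, so reads of the shared bases cannot be told apart.

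*Acadl* (chromosome 1 from 66830839 to 66863277) encodes the long-chain enzyme. Hippocampal medians were 33.8 (12.7 to 68.1) CPM pre-KD and 28.3 (16 to 85.2) CPM post-KD, and those of the frontal cortex 31.1 (11.3 to 55.8) and 37.6 (15.3 to 48.1) CPM. The log2 fold changes were -0.04 (standard error 0.39) and 0.14 (0.31), with intervals of -0.82 to 0.74 and -0.46 to 0.75, so that in both regions a change of more than 2-fold in either direction lay outside the interval.

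*Acadm* (chromosome 3 from 153922357 to 153944632) encodes the medium-chain enzyme, whose loss is the most common inherited defect of the pathway. Its hippocampal values were widely spread, from 0 to 44.6 CPM pre-KD (median 14.8) and from 1.39 to 51.6 CPM post-KD (median 25.4). Frontal cortical medians were 26.4 (9.94 to 34.5) and 25.2 (7.34 to 69.4) CPM, with 3 post-KD libraries above every pre-KD library. The log2 fold changes were 0.39 (standard error 0.58, p = 0.508) and 0.31 (0.35, p = 0.382). Leaving out single donors moved the hippocampal value between 0.12 (without donor 2) and 0.76 (without donor 1) and the frontal cortical one between 0.0070 (without donor 1) and 0.47 (without donor 3). *Acads* (chromosome 5 from 115110299 to 115119346), the short-chain enzyme, had medians of 6.94 (0 to 23.7) and 3.62 (0 to 30.3) CPM in the hippocampus and of 15.5 (0 to 37.7) and 8.23 (0.503 to 26.7) CPM in the frontal cortex, pre-KD and post-KD. The log2 fold change was -0.06 (1.0, p = 0.949) in hippocampal and -0.72 (0.56, p = 0.199) in frontal cortical libraries. Without the cohorts of donors 9 and 10 the hippocampal value was -1.14 (p = 0.355) and the frontal cortical value -1.29, with an unadjusted p of 0.0424 and an adjusted p of 0.498, the lowest of its 19 alternatives, which reached 1.0.

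The later steps belong to *Hadh*, *Hadha* and *Hadhb*. *Hadh* (chromosome 3 from 131233419 to 131272101) encodes the matrix hydroxyacyl-CoA dehydrogenase for short and medium chains. Its medians were 17.8 (5.09 to 43.2) and 26.1 (7.70 to 47.2) CPM in pre-KD and post-KD hippocampus and 13.5 (3.96 to 30.2) and 15.5 (9.34 to 39.9) CPM in the frontal cortex, where 4 post-KD libraries exceeded every pre-KD library. Groups overlapped in both regions. The log2 fold changes were both above 0, 0.47 (standard error 0.52, p = 0.370) and 0.53 (0.43, p = 0.215). With single donors left out they ran from 0.25 to 0.80 in hippocampal and from 0.32 to 0.75 in frontal cortical libraries.

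*Hadha* encodes the subunit of the trifunctional protein with hydratase and long-chain dehydrogenase activity. Its hippocampal medians were 55.9 (10.2 to 91.0) CPM pre-KD and 45.0 (12.5 to 68.1) CPM post-KD, with 3 pre-KD libraries above every post-KD library, and 7 of 10 donors were lower post-KD. The frontal cortical medians were 46.0 (25.0 to 74.2) and 54.0 (14.6 to 72.2) CPM. The log2 fold changes were -0.36 (standard error 0.33, p = 0.267) and 0.02 (0.25, p = 0.932), and the frontal cortical interval, -0.48 to 0.52, was the narrowest of the 20 for post-KD against pre-KD. *Hadha* shares 75 exonic bases with *Garem2* on the opposite strand.

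*Hadhb* encodes the thiolase subunit of the same protein. Its medians were 12.8 (2.18 to 28.6) and 18 (0 to 59.0) CPM in pre-KD and post-KD hippocampus and 24.1 (6.80 to 38.3) and 18.5 (3.34 to 27.9) CPM in the frontal cortex. In the frontal cortex 4 pre-KD libraries lay above every post-KD library, 2 post-KD libraries lay below every pre-KD library, and 8 of 10 donors were lower post-KD, while in the hippocampus 6 of 10 were higher. The log2 fold changes were 0.66 (standard error 0.63, p = 0.298) in hippocampal and -0.40 (0.42, p = 0.342) in frontal cortical libraries. With single donors left out they ran from 0.27 to 0.88 and from -0.61 to -0.28. The difference between the regions had an interval of -0.67 to 2.82 (p = 0.226, adjusted p = 1.0).

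The levels of both subunits were compared over libraries. In the hippocampus the Pearson correlation of their log2 CPM was 0.385 over 20 libraries (permutation p = 0.125, adjusted p = 0.349 over the 4 correlations made) and Spearman's rho 0.165 (p = 0.486, adjusted 0.486). Within pre-KD and post-KD hippocampus r was 0.484 and 0.438, and without the 2 libraries farthest from the *Hadha* median it was 0.301. In the frontal cortex r was 0.270 (p = 0.260, adjusted 0.349) and rho 0.265 (p = 0.262, adjusted 0.349), with r = 0.0753 pre-KD, 0.383 post-KD and 0.232 without the 2 farthest libraries. Over all 45 pairs of the 10 genes, r across the 20 libraries of a region ran from -0.432 to 0.602 in the hippocampus (median 0.0743, 24 pairs above 0) and from -0.594 to 0.598 in the frontal cortex (median 0.0698, 27 above 0). All pairs share their libraries and depth, and these values are a description.

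The levels of the 10 transcripts were also summed per library. Hippocampal sums ranged from 107 to 234 CPM in pre-KD libraries (mean 186 ± 37.4, SD, n = 10) and from 142 to 276 CPM in post-KD libraries (219 ± 48.0, n = 10), and 7 of 10 donors had the higher sum post-KD. Frontal cortical sums ranged from 128 to 249.995 CPM (190.4 ± 37.3) and from 142 to 261 CPM (197 ± 34.5), with 6 of 10 donors higher. Groups overlapped in both regions, and the difference between means was smaller than the SD of either group. RNA of whole tissue cannot tell fewer cells of a type from less RNA per cell.

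**Figure D3:**
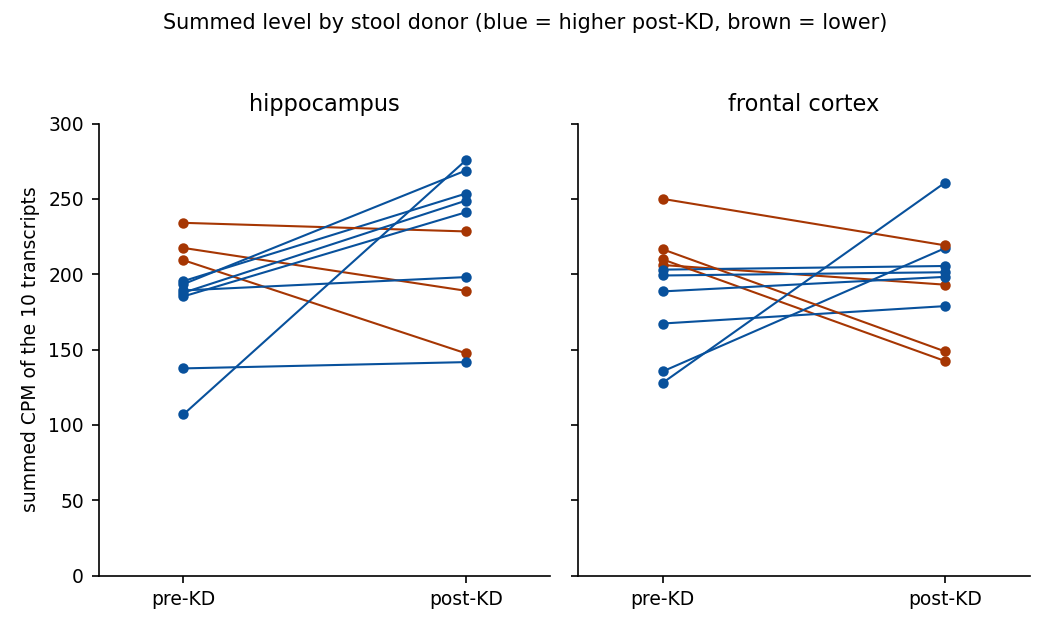
Summed CPM of the 10 transcripts in the pre-KD and post-KD library of each stool donor, by region, with 1 line per donor (10 per region). Sums are higher post-KD for 7 donors in the hippocampus and for 6 in the frontal cortex, and the pre-KD and post-KD values overlap.

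Pools of 1 group come from separate cohorts of mice, and their spread was wider than counting error alone gives. The source of that spread was not tested. The coefficient of variation of *Hadha* was 31.6% to 41.2% in the 4 groups, where Poisson counting at its depth gives 10.4% to 12.3%. For *Cpt2* it was 109% to 177% against 38.3% to 76.7%. The median ratio of the variance of depth-scaled counts to that of Poisson counting over the 10 genes was 10.3 and 18.3 in pre-KD and post-KD hippocampus and 8.09 and 10.1 in the frontal cortex. Genes of the same range of mean counts had medians of 13.3, 13.8, 8.99 and 9.81, so the 10 genes lay on both sides of the general value. With this spread, the 95% interval of the log2 fold change lay within a 2-fold change either way for 1 of 10 genes in the hippocampus (*Acadl*) and for 3 of 10 in the frontal cortex (*Acadl*, *Acadm* and *Hadha*). The other intervals left changes of over 2-fold possible, and a p above the threshold does not show that levels were alike.

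**Figure D4:**
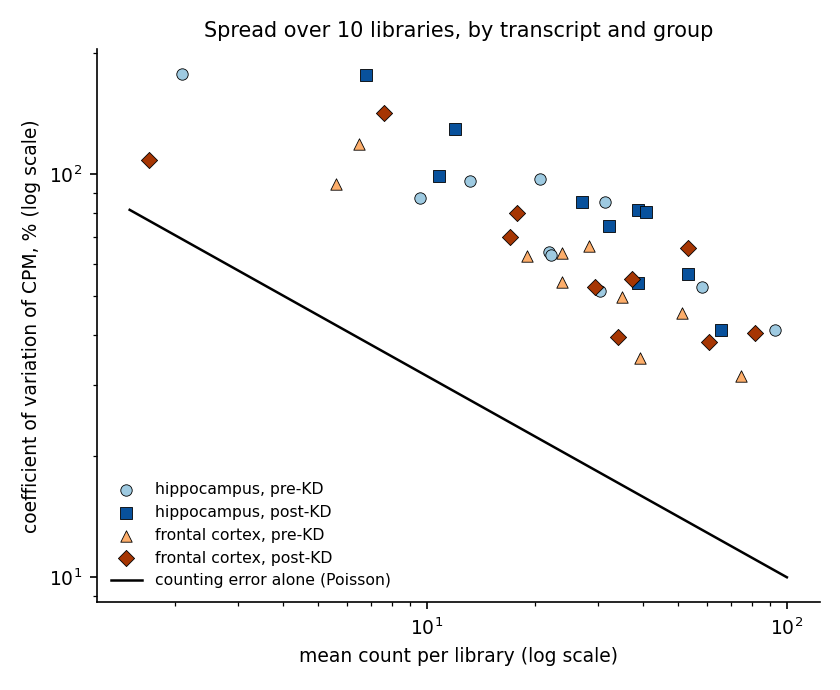
Coefficient of variation of normalized CPM over 10 libraries against the mean count per library, both on log scales, for each of the 10 transcripts in each of the 4 groups (40 points). The line is the value that Poisson counting alone gives at that mean. The points come down as the mean count goes up.

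Levels between genes can be compared only per length. With length taken as the merged exons of the gene, *Acadl* was highest at 17.9 ± 9.52 CPM per kilobase in hippocampal and 16.3 ± 6.66 in frontal cortical libraries (SD, n = 20 each). *Acadvl* followed in the hippocampus with 7.71 ± 6.86 and *Acadm* in the frontal cortex with 6.93 ± 3.85 CPM per kilobase, and *Acadl* was above the next gene in 16 of 20 and 20 of 20 libraries. Below it, neighbours in the order differed by less than the larger of their SDs, apart from *Hadhb* (2.98 ± 1.54) over *Cpt1a* (1.4 ± 0.908) in the frontal cortex. The shuttle genes were at the lower end in both regions, with *Slc25a20* at 1.39 and 0.840 and *Cpt2* at 1.16 and 0.981 CPM per kilobase.

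The order rests on the length chosen. Merged exons of *Hadha* span 8730 bases and its longest coding transcript 4017, and for *Hadhb* the lengths are 6595 and 2048 bases. Per kilobase of the longest coding transcript, *Acadl* still ranked highest (18.8 ± 9.96 and 17 ± 6.97), but its gap to the next gene, *Hadh* (12.6) in the hippocampus and *Acadm* (13.3) in the frontal cortex, was smaller than its SD. *Hadha* was at 12.6 and 11.9, *Acadm* at 10.8 in the hippocampus, *Hadh* at 10.4 in the frontal cortex, *Acadvl* at 9.56 and 7.77 and *Hadhb* at 8.53 and 9.61. *Cpt2* stayed lowest in the hippocampus and became lowest in the frontal cortex (1.17 and 0.989 CPM per kilobase). The labels and methods name a TruSeq kit, which reads along the transcript, while the list of key resources names a QuantSeq kit, which reads its end. If the latter was used, counts would not scale with length.

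**Figure D5:**
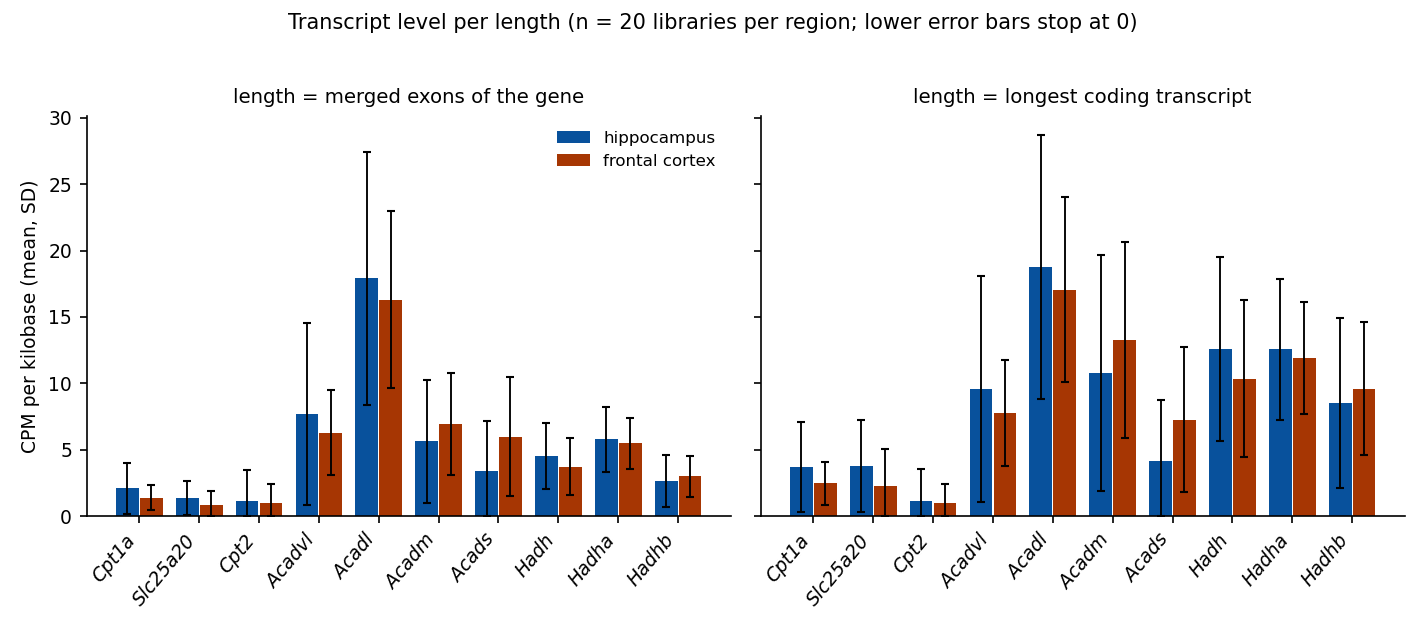
Mean CPM per kilobase of each transcript in the hippocampus (blue) and frontal cortex (brown), n = 20 libraries per region, with the length taken as merged exons (left) or as the longest coding transcript (right). Error bars are SDs and stop at 0. *Acadl* is highest on both scales, and *Hadh*, *Hadha* and *Hadhb* come nearer to it on the right.

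Between the regions, 0 of the 10 genes passed the adjusted threshold in edgeR's test with a term for each of the 20 cohorts, where 2.85% of 19422 genes did (554 genes), and 0 of 10 passed the unadjusted one, where 10.9% did. With DESeq2, 2 of the 10 passed the unadjusted threshold, where 13.7% of all genes did. In the edgeR fit with the cohort term, the median log2 fold change over all genes (hippocampus over frontal cortex) was -0.20, and that of the 10 genes 0.03, with 6 above 0 and 4 below. The median over all genes depends on the fit, and was -0.07 with DESeq2 and -0.03 in edgeR without the cohort term. *Acads* averaged 7.74 ± 8.57 CPM in hippocampal and 13.6 ± 10.2 CPM in frontal cortical libraries (SD, n = 20 each), was lower in the hippocampus in 14 of 20 cohorts, and differed by -1.32 on the log2 scale (standard error 0.70, p = 0.0595, adjusted p = 0.497). *Acadm* averaged 22.0 ± 18.2 and 27.1 ± 15.1 CPM, was lower in the hippocampus in 13 of 20 cohorts, and differed by -0.77 (0.39, p = 0.0503, adjusted p = 0.460). These were the 2 genes that DESeq2 placed below an unadjusted 0.05 (p = 0.0125 and 0.0363), and their adjusted p over the alternatives ran from 0.109 to 0.930 and from 0.209 to 0.902. Over the same 19 alternatives the log2 value ran from -1.69 to -0.77 for *Acads* and from -0.96 to -0.30 for *Acadm*.

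The other 8 genes had log2 fold changes between regions from -0.32 to 0.54. *Hadha* was at 50.5 ± 21.3 and 47.9 ± 16.9 CPM, with 10 cohorts higher and 10 lower in the hippocampus and an interval of -0.43 to 0.47 on the log2 scale. Together with *Acadl* (-0.49 to 0.65) and *Acadvl* (-0.86 to 0.94) it was one of the 3 genes whose interval stayed within a 2-fold change. The summed choroid plexus markers, led by *Ttr*, were at 469 to 4307 CPM in hippocampal and 1.57 to 594 CPM in frontal cortical libraries, and the summed striatum markers at 33.0 to 295 and 500.2 to 1103 CPM. At the adjusted threshold 3 of 10 neuron markers and 1 of 10 astrocyte markers were lower in the hippocampus. The unadjusted one was passed by 10.9% of all genes, and 1578 of those 2117 genes were lower in the hippocampus. Lower at that threshold were 4 of 8 oligodendrocyte (1 more was higher), 3 of 7 endothelium and 3 of 4 blood markers. These markers moved with region, and their part in the values of the 10 genes was not tested. The astrocyte marker past the adjusted threshold was *S100b* (adjusted p = 0.00316), and *Aqp4* was higher in the hippocampus at the unadjusted one (p = 0.00490). Summed astrocyte markers, most of which is *Slc1a2* and of which *Aldh1l1* was at 0 in 2 hippocampal libraries, were at 2722 to 3330 CPM in hippocampal and 2816 to 3525 CPM in frontal cortical libraries.

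Whether the change post-KD differed between the regions was tested with an interaction term. Of the 10 genes, 0 passed the adjusted threshold, where 0.0154% of 19422 genes did (3 genes), and 0 the unadjusted one, where 2.22% did. With DESeq2 the numbers were 0 of 10 against 4.89%. The lowest p of the 10 was that of *Hadhb*. Among marker lists, post-KD libraries differed from pre-KD libraries at the adjusted threshold for 0 genes in either region. At the unadjusted one, which 10.1% and 9.68% of all genes passed, hippocampal libraries had 3 of 9 hippocampus markers (2 higher post-KD, 1 lower), 1 of 8 oligodendrocyte markers (higher) and 1 of 6 striatum markers (lower). Frontal cortical libraries had 1 of 10 neuron markers (lower), 2 of 8 microglia markers (1 higher, 1 lower), 2 of 4 blood markers (higher) and 2 of 6 striatum markers (higher). The interaction itself had 4 of 6 striatum, 2 of 4 blood, 1 of 8 cortex and 1 of 7 endothelium markers at the unadjusted threshold, all below 0, and the part of these markers in the values of the 10 genes was not tested. The astrocyte list, the cells in which most brain fatty acid oxidation is placed, had 0 of 10 in both, with summed levels of 3080 ± 175 and 3186 ± 92.7 CPM in pre-KD and post-KD hippocampus and 3035 ± 215 and 3119 ± 207 CPM in the frontal cortex.

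The genes around these 10 were taken from 6 lists with 82 members: uptake, activation and binding of fatty acids, other carnitine genes, other mitochondrial oxidation enzymes, control by malonyl-CoA and AMPK, PPAR regulators and targets, and peroxisomal oxidation. Post-KD against pre-KD, 0 of the 78 tested in the hippocampus and 0 of the 77 tested in the frontal cortex passed the adjusted threshold, and 2 in each (2.56% and 2.60%) passed the unadjusted one, against 10.1% and 9.68% of all genes. The share over all genes depends on the filter, and with filterByExpr it was 221 of 9509 and 407 of 10033 genes. Median log2 fold changes of the list genes were 0.0034 and 0.0015. The carnitine, malonyl-CoA, PPAR and peroxisomal lists had 0 genes at the unadjusted threshold in either region, and the uptake list had 1 of 14, in the frontal cortex.

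The genes at the unadjusted threshold in the hippocampus both came from the 21 other mitochondrial oxidation enzymes, 1 higher and 1 lower. *Pcca*, a subunit of propionyl-CoA carboxylase, had medians of 36.1 (0 to 102) CPM pre-KD and 20.9 (0 to 44.2) CPM post-KD, a log2 fold change of -1.05 (standard error 0.49, p = 0.0355, adjusted p = 0.404). *Mmut*, the methylmalonyl-CoA mutase listed as *Mut* in the annotation, had medians of 22.1 (4.88 to 35.0) and 38.3 (23.8 to 60.9) CPM and a log2 fold change of 0.87 (0.43, p = 0.0464, adjusted p = 0.476). The groups overlapped for both genes, and edgeR with a donor block gave p = 0.102 and 0.0562. Each passed the unadjusted threshold in 10 of 19 alternatives, with p up to 0.208 for *Pcca* and 0.148 for *Mmut*, and missed it in 4 and 6 of the 10 fits that left out 1 donor.

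In the frontal cortex *Fabp3*, a fatty acid binding protein of neurons and muscle, had medians of 79.1 (47.6 to 99.7) CPM pre-KD and 57.2 (32.7 to 70.1) CPM post-KD, a log2 fold change of -0.51 (standard error 0.20, p = 0.0127, adjusted p = 0.217). *Ivd*, the acyl-CoA dehydrogenase of leucine breakdown and a relative of the 4 acyl-CoA dehydrogenases above, had medians of 34.7 (13.2 to 84.3) and 12.7 (2.38 to 56.6) CPM and a log2 fold change of -1.14 (0.38, p = 0.00408, adjusted p = 0.122). Its adjusted p over 19 alternatives lay between 0.0578 and 0.997. Pre-KD and post-KD values overlapped for both genes.

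Between regions, 2117 of all genes had an unadjusted p below 0.05, and 1578 of them were lower in the hippocampus. Of the 79 list genes tested 7 had one, all lower in the hippocampus (8.86% against 10.9% of all genes), and 1 passed the adjusted threshold. That gene was *Ppargc1b*, a coactivator of nuclear receptors that drive mitochondrial genes, with medians of 43.1 (0.73 to 79.2) CPM in hippocampal and 51.3 (30.6 to 94.3) CPM in frontal cortical libraries, and a fitted difference of -0.81 on the log2 scale (standard error 0.25, edgeR adjusted p = 0.0429). *Ppargc1b* missed the threshold in DESeq2 (adjusted p = 0.0557), without the cohort term (0.319) and in 7 of the 10 fits that left out 1 donor, those without donors 2, 3 and 5 to 9, where it reached 0.253. Over 19 alternatives the adjusted p lay between 0.0143 and 0.854. The uptake, malonyl-CoA and peroxisomal lists each had 2 genes lower in the hippocampus at the unadjusted threshold, and the other 2 lists had none.

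The genes whose levels moved most like the summed 10 over the 40 libraries, each relative to the mean of its region, were *Snd1* (Pearson r = 0.677), *Zdhhc4* (0.663), *Ddx39b* (0.632), *Sh3rf3* (0.624) and *Srsf6* (0.616). They led 8150 genes averaging at least 20 counts, of which 89 had r above 0.5, and all points share library and depth. Of the 7 summed genes with that many counts, *Hadhb* (0.717), *Acadm* (0.571) and *Hadha* (0.460) were nearest to the sum that contains them, and *Cpt1a* (-0.0213) was farthest.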

How the data were processed

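The authors deposited 1 table per region of unnormalized read counts for 47643 genes in 20 libraries. According to the methods, paired 69 bp reads were trimmed, aligned to mm10 with STAR 2.5.2a and counted with HTSeq 0.6.0. Strand setting and annotation release are not given in the sources used here. Of the gene identifiers, 47224 matched GENCODE M21 symbols and 419 did not, and 0 pairs of libraries were identical.

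Members and gene lists were chosen with earlier results of these data known. Genes with at least 10 summed counts were tested with edgeR 4.0.16 (quasi-likelihood, TMM, R 4.3.3) without a donor term in each region, and with a term for each of 20 cohorts between regions and for the interaction. P values were adjusted (Benjamini-Hochberg) over all genes of a fit. Standard errors and 95% intervals come from the unshrunk coefficients. Likeness and the correlations between members used log2 CPM (prior count 2), and p values of correlations came from 100000 permutations (scipy 1.17.1). Motifs were searched in RefSeq windows, all 10 genes matched by symbol. The same fits were run on simulated counts that held no donor or cohort differences, and their outcome is not given here.

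Named were all members, list genes with an unadjusted p below 0.05 post-KD (at most 5 per list and region), list genes past the adjusted threshold between regions (at most 3 per list) and the 5 genes most like the sum. Donors link pre-KD and post-KD cohorts by design. On genes averaging at least 20 counts, deviations of same-donor libraries correlated at -0.0298 to 0.0274 in the hippocampus and -0.0467 to 0.0322 in the frontal cortex. Alternatives were DESeq2 1.42.0, no filter, filterByExpr, RLE factors, *Gm42418* left out, the donor block, a Y-linked covariate, single conditions, each donor left out and, chosen after seeing the data, donors 9 and 10 left out and transcript length. Labels give no batches. Replicates are separate cohorts, but p values do not cover spread between mice of a pool.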

Additional observations from a re-analysis of the deposited data

Results flagged for a closer look

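In groups of 10 libraries, a sample whose gap to its neighbour took a share of the group's range above Dixon's 95% critical value was looked for in 44 groups, made of the 10 genes and their sum in each region and condition. For normal, independent values chance marks about 1 in 20 groups, and these values are skewed, with sums that contain the genes, so their chance rate is not known. The number found was 6, and the library that stood apart was the highest in each case.

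The libraries of donor 8 stood apart in 3 of them. *Cpt2* was at 7.37 CPM in the pre-KD hippocampus of donor 8 against 2.5 CPM in the next library (gap 0.661 of the range) and at 22.9 CPM in its post-KD hippocampus against 8.88 CPM (0.613), so that this donor had the highest hippocampal *Cpt2* in both conditions. *Acadl* was at 85.2 CPM in the post-KD hippocampus of donor 8 against 52.2 CPM (0.477).

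Donor 10, whose libraries held Y-linked counts, stood apart for *Cpt1a* in pre-KD frontal cortex, with 27.8 CPM against 14.6 CPM (0.50), and for *Hadh* in pre-KD hippocampus, with 43.2 CPM against 20.7 CPM (0.591). *Slc25a20* was at 20.03 CPM in the post-KD frontal cortex of donor 7 against 10.2 CPM (0.491).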

How the results depend on the processing

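The number of the 10 genes past the adjusted threshold was 0 in all 4 comparisons and all alternatives run. At the unadjusted threshold it became 1 in the hippocampus and 2 between regions with DESeq2, 1 in the frontal cortex and 1 between regions without donors 9 and 10, and, with single donors left out, 0 to 1 in the hippocampus and 0 to 2 between regions. filterByExpr removed *Cpt2* and *Slc25a20* in both regions. Counts over all genes moved far more, and the cause was not tested. Adjusted calls in the hippocampus (1) became 0 with DESeq2, filterByExpr and the donor block (edgeR and DESeq2), 1291 with no filter, and 0 to 1 with single donors left out (0 without donor 4 or 9), while those in the frontal cortex (1) became 2 with DESeq2 and 3 and 12 with the donor block in edgeR and DESeq2. Unadjusted calls were 599 and 825 with DESeq2, 2931 and 3035 with no filter, 221 and 407 with filterByExpr, 348 and 548 with the donor block in edgeR and 931 and 1096 with it in DESeq2, in hippocampus and frontal cortex. Between regions, adjusted calls were 1033 with DESeq2, 1935 without the cohort block, 193 in pre-KD and 251 in post-KD libraries alone, and unadjusted calls 3475 without the block and 1208 and 1401 in single conditions. For the interaction, DESeq2 gave 0 adjusted and 949 unadjusted calls, and the fit without the block 348 and 1767. In edgeR the donor block changed no call of a member, and in DESeq2 it ended the unadjusted call of hippocampal *Acadvl* (p = 0.0730).

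Signs turned only where the log2 value was near 0 or its error wide. Post-KD against pre-KD, *Slc25a20* became -0.69 and -0.74 in the hippocampus and -0.37 and -0.38 in the frontal cortex with the donor block (edgeR and DESeq2), *Acadl* 0.0080 in the hippocampus with the DESeq2 block, and *Hadha* -0.050 and -0.043 in the frontal cortex with the block. Without donors 9 and 10, frontal cortical *Cpt1a* became 0.014, *Acadl* -0.030 and *Hadha* -0.095, regional *Acadl* -0.083 and *Hadha* -0.065, and the interaction -0.15 for *Cpt1a*, -0.57 for *Acads* and 0.17 for *Hadh*. Between regions, pre-KD libraries alone gave *Cpt1a* -0.26 and *Acadvl* -0.10, post-KD libraries alone *Cpt2* 0.24, *Hadha* -0.13 and *Hadhb* 0.21, and the fit without the block *Cpt2* 0.29. With single donors left out, hippocampal values ran from -0.26 to 0.46 for *Slc25a20*, -0.67 to 0.27 for *Acads* and -0.19 to 0.095 for *Acadl*. The frontal cortical ones ran from -0.51 to 0.74 for *Slc25a20*, -0.018 to 0.36 for *Acadl* and -0.10 to 0.18 for *Hadha*. Those between regions ran from -0.10 to 0.58 for *Cpt1a*, -1.13 to 0.47 for *Cpt2*, -0.025 to 0.21 for *Acadl*, -0.25 to 0.27 for *Acadvl* and -0.11 to 0.13 for *Hadha*. Interaction values ran from -1.18 to 0.53 for *Slc25a20*, -0.38 to 0.78 for *Acads*, -0.19 to 1.04 for *Acadm*, -0.36 to 0.11 for *Acadl*, -0.11 to 0.59 for *Acadvl* and -0.36 to 0.094 for *Hadh*.

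Omitting TMM factors or *Gm42418* moved 0 of 120 group levels by over 1 SD. Taking the longest coding transcript as length moved 11 of 20 values per kilobase: *Cpt1a* to 2.48 in the frontal cortex, and, in hippocampus and frontal cortex, *Slc25a20* to 3.76 and 2.28, *Acadm* to 10.8 and 13.3, *Hadh* to 12.6 and 10.4, *Hadha* to 12.6 and 11.9 and *Hadhb* to 8.53 and 9.61. Depth limits *Cpt2* and *Slc25a20* most.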

Other observations

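Of the list genes outside the 10, *Acaa2* and *Prkaa1* were chosen after their values were seen, as the list genes whose interaction of condition and region had an unadjusted p below 0.05. They were 2 of the 79 tested (2.53%), where 2.22% of all genes had one, and 4 of 6 striatum, 2 of 4 blood, 1 of 8 cortex and 1 of 7 endothelium markers had one too, with the same sign. *Acaa2* encodes the matrix thiolase that ends a round of oxidation of medium-chain substrates, after the steps of *Acadm* and *Hadh*. Its mean level was 22.6 ± 13.3 CPM pre-KD and 14.9 ± 15.4 CPM post-KD in the hippocampus and 15.7 ± 8.0 and 26.1 ± 10.9 CPM in the frontal cortex (SD, n = 10 each). Its log2 fold change was -0.61 in hippocampal (p = 0.324) and 0.72 in frontal cortical libraries (p = 0.0742), and the difference between them in the fit over both regions was -1.95 (edgeR unadjusted p = 0.0284, adjusted p = 1.0). *Prkaa1*, a catalytic subunit of AMPK, showed the same order, at -0.72 and 0.81, with a difference of -2.55 (p = 0.0358, adjusted p = 1.0).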
